A study of Mus musculus with 95 samples.

Results

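Cytosolic ribosomal protein genes were followed in kidneys of SNF1 mice, the F1 females of a SWR by NZB cross that develop lupus-like nephritis spontaneously. Members were all genes whose symbol was the only one annotated for a probe set and followed the naming pattern of the cytosolic ribosomal proteins (Rpl, Rps and Rplp followed by a number), leaving out pseudogenes and the Rps6k kinases. The pattern found 69 genes, 46 of the large and 23 of the small subunit, measured by 131 of the 45037 probe sets tested, and each gene was represented by its probe set of highest mean over all 95 arrays. These 69 genes stood among 17097 genes that had a probe set with a single symbol.

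Treated females received intraperitoneal pristane, a hydrocarbon oil that accelerates lupus in susceptible mice, when they were 9 weeks old. Untreated kidneys numbered 7 at week 0, 10 at week 2, 9 at week 4, 10 each at weeks 8 and 12, and 5 at week 14. Pristane kidneys numbered 9 at week 2, 10 at week 4, 8 each at weeks 8 and 12, and 9 at week 14 after the injection. Controls were age-matched, so the week also marks the age of each mouse. All groups carried the same F1 background and the controls are described as untreated, not as given another oil. Whole kidney RNA was measured, so fewer cells of a type and less RNA per cell cannot be told apart. The p-values below set differences between groups against the spread between kidneys within groups.

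Each cytosolic ribosome is built from a small subunit, which reads the mRNA, and a large subunit, which joins amino acids and lets the chain leave through an exit tunnel. The ribosomal proteins are made in step with each other in most tissues, partly because many of their mRNAs begin with a 5′ terminal oligopyrimidine (TOP) tract, a C followed by a run of C and T that places their translation under the growth kinase mTOR. Several members have near copies (paralogs) with tissue-restricted expression, and a few, such as Rpl11, also act outside the ribosome by binding Mdm2, the inhibitor of p53.

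The region around the start site is shown for 8 members named below, so that the TOP tract can be seen. Their share with a tract is not that of all members, which is given below. Each line runs 5′ to 3′ on the strand of GRCm38.p6 that reads like the mRNA, from 15 bases before the RefSeq start to 15 bases from the start on. Capitals mark a tract of C followed by at least 4 bases that are C or T where it begins exactly at that start.
Rps6, chr4:86857353-86857382, minus strand: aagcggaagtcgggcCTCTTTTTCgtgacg
Rps18, chr17:33955651-33955680, minus strand: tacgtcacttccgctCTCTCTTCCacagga
Rpl15, chr14:18270972-18271001, minus strand: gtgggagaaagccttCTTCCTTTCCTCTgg
Rpl37, chr15:5116598-5116627, plus strand: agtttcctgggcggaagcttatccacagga
Rpl39, chrX:37085208-37085237, minus strand: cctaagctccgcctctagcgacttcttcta
Rps12, chr10:23787195-23787224, minus strand: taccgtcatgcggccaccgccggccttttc
Rpl22l1, chr3:28805493-28805522, plus strand: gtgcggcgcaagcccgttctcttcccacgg
Rpl7l1, chr17:46782642-46782671, minus strand: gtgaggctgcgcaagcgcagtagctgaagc

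RefSeq start sites were at hand for 55 of the 69 members. The tract began at an annotated start in 11 of the 55 (20%) and in 813 of all 27025 genes with a start site (3.01%), searched on the strand that reads like the mRNA alone. Within 5 bases either side of the start it was present in 26 members (47.3%) and in 21.2% of all genes. Annotated starts can lie some bases from the start in use, and a window without these letters says only that. Of the 11 members called higher at week 14 that had a start site, 1 (Rpl15) held the tract at the start and 6 within the window, against 10 and 20 of the 44 other members.

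Ribosomal protein transcripts were among the brightest on the arrays. In 64 of the 69 members the mean log2 value over all arrays was among the highest 10% of all probe sets. Shares and medians over all probe sets, set beside those of the members below, therefore come mostly from dimmer probe sets. The highest means were those of Rps6 (13.67), a small-subunit protein phosphorylated by the S6 kinases, Rpl41 (13.58) and Rpl10 (13.48). The lowest were those of Rpl39l (2.38), Rpl3l (2.43) and Rps15a (4.97), and a probe set's brightness also depends on its probes. Rpl39l, the germ cell paralog of the exit tunnel protein Rpl39, gave 1 identical value (2.35) on 74 of 95 arrays, and Rpl3l, the muscle paralog of Rpl3, gave the value 2.42 on 78 arrays. Neither was called in any comparison. The Rps15a probe set also gave a single value (4.94) on 36 arrays.

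Members varied little between kidneys of the same group. The median within-group SD was 0.120 on the log2 scale, and the largest were those of Rpl22l1 (0.31), Rpl7l1 (0.30) and Rpl14 (0.25). Deviations from the group means, over the 95 arrays, had a median Pearson correlation of 0.195 over the 2346 pairs of members, as a description of arrays that were normalised together. With the median of the other members, 30 members correlated above 0.5 and 10 below 0.2. Rps9 (0.79), Rpl12 (0.78) and Rpl13a (0.78) followed the others most closely. Rpl39l (-0.29), Rpl3l (-0.19) and Rpl37 (-0.08) followed them least. Among 16349 other genes, those whose deviations were most like the members' median were Ddx39b (r = 0.79), an mRNA export helicase, Tbrg1 (0.78), Wfdc2 (0.75), the initiation factor subunit Eif3d (0.74) and the proteasome subunit Psmd4 (0.74).

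The 11 groups did not share 1 level of ribosomal protein transcripts: by group mean, untreated week 0 was the lowest and pristane week 14 the highest. To see this, the median over the 69 members was taken in each kidney after subtracting each gene's mean over the 51 untreated arrays. This median ran from -0.24 to -0.14 in the 7 untreated week 0 kidneys, and the lowest kidney of any other group was at -0.10. It ran from 0.11 to 0.40 in the 9 kidneys of pristane week 14 and from -0.05 to 0.15 in the 5 of untreated week 14. All 7 week 0 kidneys were therefore lower than every other kidney. The range of pristane week 14 overlapped that of untreated week 14 and those of other groups. The highest kidneys were at 0.19 in pristane week 12, 0.16 in untreated week 12 and 0.13 in pristane week 8. By group mean, 54 of 69 members were lowest in untreated week 0, 50 were highest in pristane week 14 and 5 were highest in untreated week 14.

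**Figure D1:**
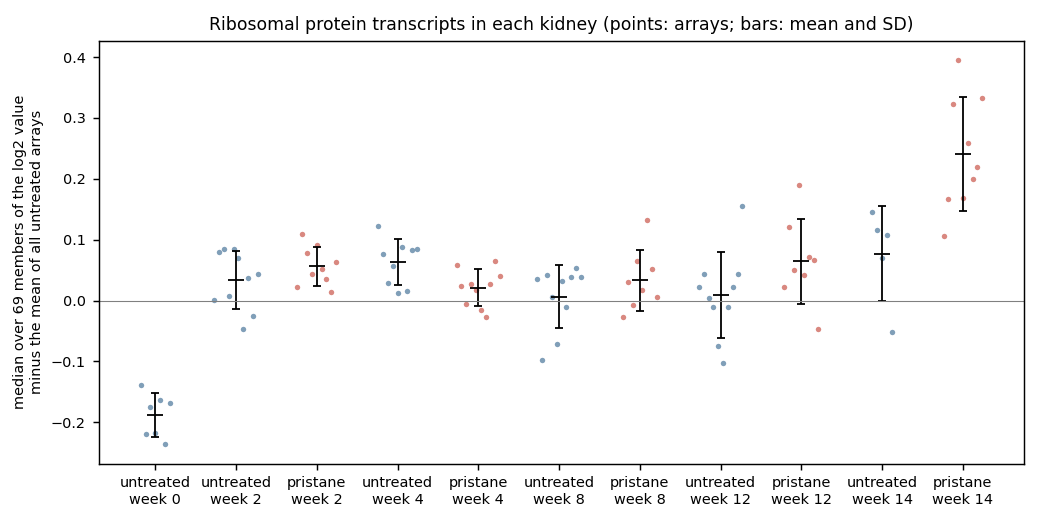
Median over the 69 members of the log2 value minus the mean of all untreated arrays (y axis), for each of the 95 kidneys in 11 groups (x axis, blue untreated and red pristane). Points are arrays and bars give the group mean and SD. The 7 week 0 kidneys lie between -0.24 and -0.14, below all others, and the 9 pristane week 14 kidneys lie between 0.11 and 0.40.

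Some technical measures moved with these groups. The difference between the 3′ and 5′ Gapdh probe sets, which grows as RNA or its copies are shorter, was 1.26 to 1.48 at untreated week 0, 1.01 to 1.13 at untreated week 14 and 1.15 to 1.52 at pristane week 14. It was therefore higher in the groups of lowest and highest mean than in untreated week 14. The same difference for actin overlapped between these groups. It was 2.33 to 2.99 at untreated week 0, 2.45 to 2.67 at untreated week 14 and 2.31 to 2.83 at pristane week 14. The probe set for the middle of the small ribosomal RNA had a median of 11.83, 12.76 and 10.74 in untreated kidneys of weeks 0, 2 and 14, and of 8.69 in those of pristane week 14. The mean of the spiked BioB controls was 10.54 at untreated week 0, 9.78 at untreated week 14 and 10.08 at pristane week 14. Array medians over all probe sets ran from 4.22 to 4.57. The part of these measures in the results was not tested.

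Ribosomal protein transcripts were higher in untreated kidneys at week 14 than at week 0, in 40 of the 69 members, and lower in 1 (Rps15a). The share of members called in either direction was 59.4%, beside 13.3% of all probe sets tested, of which 8.78% were higher and 4.52% lower. The members' median log2 difference was 0.31 and that of all probe sets was -0.01. Of the 41 called members 28 belonged to the large subunit and 13 to the small one. In 31 members, all higher, the 5 week 14 kidneys did not overlap the 7 of week 0, beside 5.81% of all probe sets. Only Rpl22l1 and Rpl7l1 were more than 2-fold apart. Macrophage and monocyte markers moved the same way, with 7 of 14 higher and 0 lower (median 0.70) and a summed level of 10.26 to 10.79 at week 14 against 9.38 to 9.65 at week 0. Of 5 plasma cell markers 1 was higher, Jchain (5.31, SE 0.30), and 0 lower, with a median of 0.36. Their summed level was 9.68 to 11.46 against 7.32 to 7.80. In untreated week 14 kidneys Jchain had a mean of 10.77 and the next brightest of them, Xbp1, one of 7.16. Of 10 tubule markers 3 were higher and 1 lower. B cell markers went the other way, with 0 of 7 higher and 1 lower (Cd79a, -0.45, SE 0.09, adjusted p = 0.00771) and a summed level of 5.98 to 6.12 at week 14 against 6.23 to 6.44 at week 0, without overlap. Of the other lists 1 of 9 T cell markers was higher, 1 of 7 glomerulus and 1 of 10 adrenal markers were lower, and 0 neutrophil, erythroid, fat and muscle markers were called. The part of these cells in the result was not tested.

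Rpl22l1, the paralog of the large-subunit protein Rpl22, was at 9.95, 10.05, 9.70, 10.05 and 9.72 in the 5 untreated week 14 kidneys and between 7.57 and 8.96 (median 8.63) in the 7 of week 0. All week 14 kidneys were higher than all week 0 kidneys, by 2.69-fold (log2 1.43, SE 0.21, adjusted p = 0.00242). Rpl7l1, a paralog of the large-subunit protein Rpl7, was at 8.76, 9.23, 8.74, 8.34 and 8.49 at week 14 and between 7.15 and 8.15 (median 7.63) at week 0. Here too the groups did not overlap, with a difference of 2.12-fold (log2 1.09, SE 0.18, adjusted p = 0.00479). This holds for the chosen probe set of Rpl7l1. Dimmer probe sets of Rpl7l1 gave log2 differences of 0.003 (SE 0.15, not called) and 0.61 (SE 0.10, adjusted p = 0.0042).

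The next members by size were proteins of both subunits. Rpl24, mutated in the Belly spot and tail mouse, was at 12.69, 12.68, 12.56, 12.52 and 12.32 at untreated week 14 and between 11.31 and 12.04 (median 11.86) at week 0, without overlap (log2 difference 0.77, SE 0.13, adjusted p = 0.00426). A second, dimmer probe set of Rpl24 gave -0.34 (SE 0.18, not called). Rpl27 was at 12.74, 12.74, 12.59, 12.68 and 12.27 against 11.63 to 12.23 (median 12.00), and the lowest week 14 kidney was just above the highest of week 0 (0.63, SE 0.12, adjusted p = 0.00675). The small-subunit protein Rps14 was at 11.51, 11.44, 11.48, 11.48 and 11.13 against 10.32 to 11.10 (median 10.80), again with a narrow gap (0.63, SE 0.12, adjusted p = 0.00765). Rps15a, whose probe set is dim, was the only member whose chosen probe set was called lower: it was at 4.73, 4.71, 4.92, 4.72 and 4.94 at week 14 and between 4.94 and 6.02 (median 5.32) at week 0, with both groups reaching the value that many arrays share (-0.58, SE 0.16, adjusted p = 0.0345).

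**Figure D2:**
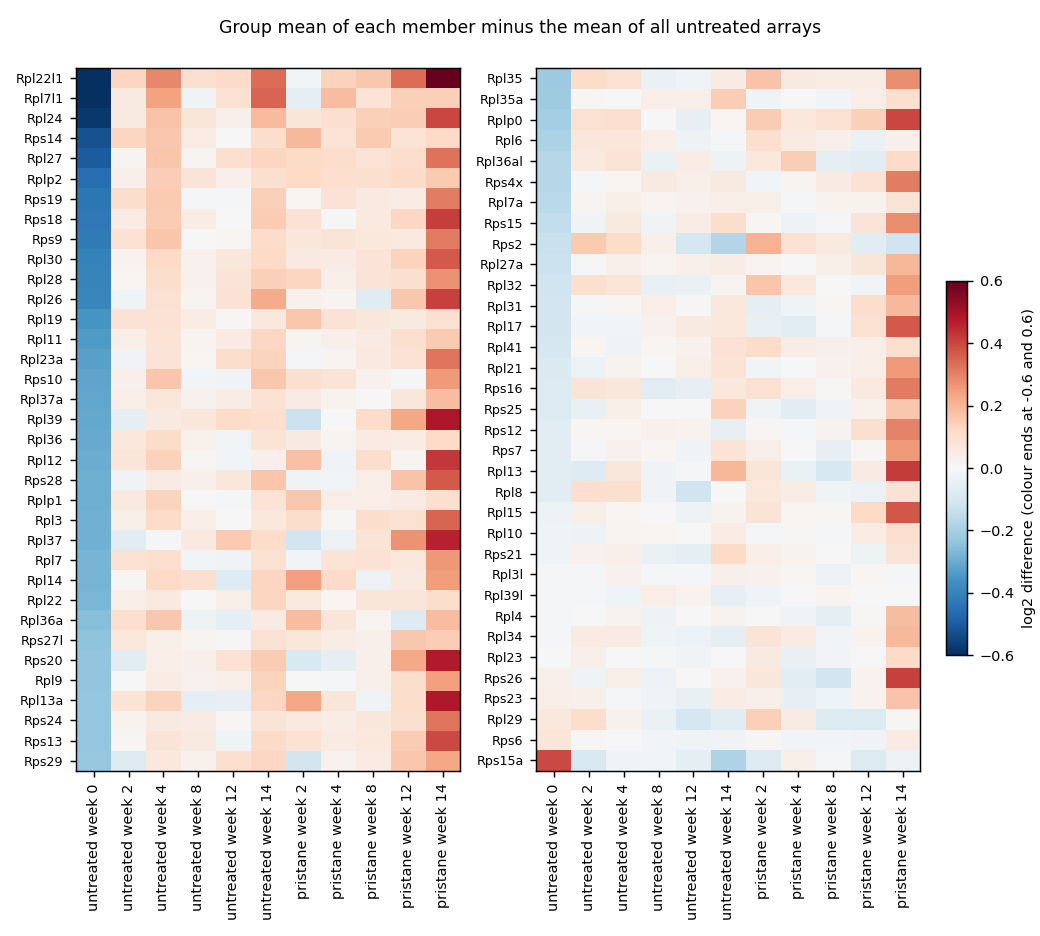
Mean of each member (rows, ordered by untreated week 0) in each of the 11 groups (columns) minus its mean over all untreated arrays, in log2 units, with colours ending at -0.6 and 0.6. The week 0 column is blue for most members and the pristane week 14 column is red for most, whereas Rps15a is red at week 0.

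The difference over time in untreated mice lay mostly between week 0 and the later weeks. Over all 6 untreated groups 54 members differed (78.3%, beside 32.9% of all probe sets, limma F test). Leaving out week 0, a choice made after that group was seen to stand apart, 7 members differed, beside 10.8% of all probe sets. Against untreated week 2 in place of week 0, 4 members differed at untreated week 14 (2 higher and 2 lower), beside 3.89% of all probe sets, and the median difference over all 69 was 0.05. The 15 members not called among the 6 untreated groups included Rps6, Rps12, Rps26, Rpl4, Rpl10 and Rpl15. Over the 5 pristane groups 47 members differed (68.1%, beside 33.9%), and without week 14, also chosen after seeing the data, 12 differed, beside 14.4%.

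Over weeks 2, 4, 8 and 12 after pristane, 1 member was called against untreated mice of the same week, and no difference was larger than 0.24 on the log2 scale. At week 2, 0 of 69 members were called by limma (0.249% of all probe sets, 0.231% higher and 0.0178% lower), and 4 were higher and 1 lower at an unadjusted p under 0.05 (beside 3.45% and 3.69%). The largest differences there were those of Rpl14 (0.24, SE 0.09) and Rpl13 (0.15, SE 0.06) upward and of Rpl22l1 (-0.14, SE 0.09) and Rpl7l1 (-0.11, SE 0.15) downward. Adrenal markers, called in 0 of 10 at week 2, had a median summed level of 12.71 (7.92 to 13.70) in pristane kidneys. In untreated kidneys it was 8.10 (7.67 to 13.15). The part of adrenal tissue in the week 2 values was not tested. At week 8, 0 members were called (0.0866% of all probe sets) and 0 passed the unadjusted threshold in either direction (beside 2.73% higher and 0.899% lower), with differences from -0.13 (Rpl14, SE 0.13) and -0.09 (Rpl26, SE 0.13) to 0.10 (Rpl7l1, SE 0.12) and 0.11 (Rps14, SE 0.07). At week 12, 0 members were called (0.0244% of all probe sets), while 7 were higher and 1 lower at the unadjusted threshold (beside 4.44% and 1.73%). The largest upward values at week 12 were those of Rpl22l1 (0.22, SE 0.18) and Rplp0 (0.19, SE 0.08), and the downward ones those of Rpl36al (-0.11, SE 0.04) and Rps15a (-0.03, SE 0.06). For weeks 2, 4, 8 and 12 the members' median difference was 0.02, -0.04, 0.02 and 0.05, in that order. Some untreated kidneys of weeks 8 and 12 were rich in macrophage and monocyte markers. The summed marker level ran from 9.49 to 12.34 in untreated and 10.26 to 11.76 in pristane kidneys at week 8. At week 12 it ran from 9.27 to 13.63 and from 10.95 to 12.62, with the 13.63 in untreated replicate 10. The part of these cells in the week 8 and 12 values was not tested.

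At week 4 Rps18, a small-subunit protein, was called lower after pristane, the 1 member called (1.45%, beside 0.138% of all probe sets in either direction and 0.0133% in this one). Rps18 was between 11.49 and 11.65 (median 11.56) in the 10 pristane kidneys and between 11.64 and 11.86 (median 11.73) in the 9 untreated ones. The ranges overlapped at their ends, and the difference was -0.16 (SE 0.03, adjusted p = 0.0464). The call was lost when any 1 of 15 of the 19 kidneys was left out. At an unadjusted p under 0.05, 6 members were lower at that week (beside 1.95%) and 0 higher.

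At week 14 ribosomal protein transcripts were higher in pristane than in untreated kidneys in 14 members, 8 of the large and 6 of the small subunit, and lower in 0. This was 20.3% of the members, beside 4.57% of all probe sets called higher, 3.73% called lower and 8.31% called either way. All differences were under 2-fold. The members' median log2 difference was 0.15, and 64 of the 69 values were above 0. Over all probe sets, most of them dimmer, the median was 0 and 44.4% were above 0. Differences ran from -0.20 in Rpl7l1 to 0.53 in Rpl22l1, neither of which was called. At an unadjusted p under 0.05, 31 members were higher (beside 10.2%) and 0 lower. The called members, from the largest difference down, were Rplp0, Rpl39, Rps26, Rpl15, Rpl37, Rps12, Rps20, Rps13, Rps4x, Rpl34, Rpl30, Rps24, Rpl21 and Rpl27a. In 5 of them (Rpl39, Rpl37, Rps12, Rps20 and Rpl30) the groups did not overlap, beside 2.02% of all probe sets.

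**Figure D3:**
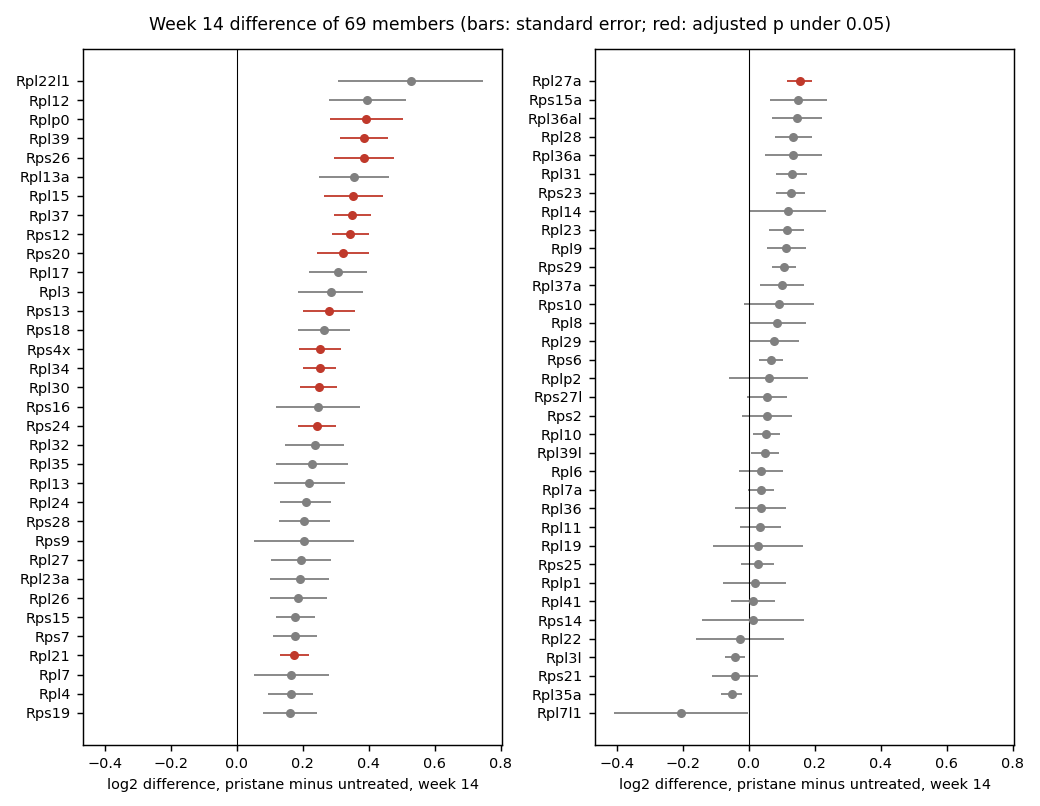
Log2 difference between pristane and untreated kidneys at week 14 (x axis, bars give the standard error) for the 69 members, from the largest at the top left to the smallest at the bottom right. Red marks the 14 members with an adjusted p under 0.05, and 64 of 69 points lie above 0.

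Rplp0, the protein that anchors the large subunit's stalk, was at 11.21, 11.02, 10.88, 10.91 and 10.70 in the 5 untreated week 14 kidneys and between 11.05 and 11.63 (median 11.38) in the 9 pristane ones. Only 1 untreated kidney reached the pristane range, and the difference was 1.31-fold (log2 0.39, SE 0.11, adjusted p = 0.0474). Rpl39, which lines the exit tunnel, was at 12.66, 12.78, 12.65, 12.76 and 12.76 against 12.79 to 13.34 (median 13.11), with all pristane kidneys above all untreated ones (0.39, SE 0.07, adjusted p = 0.0129). Rps26, which lies where the mRNA leaves the small subunit, was at 12.01, 11.90, 11.80, 11.92 and 11.70 against 11.89 to 12.42 (median 12.31). Several untreated kidneys of Rps26 lay within the pristane range (0.39, SE 0.09, adjusted p = 0.0275).

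Rpl15, a core large-subunit protein, was at 12.41, 12.34, 12.25, 12.39 and 12.10 in untreated week 14 kidneys against 12.37 to 12.89 (median 12.67) after pristane, with a small overlap (0.35, SE 0.09, adjusted p = 0.0358). Rpl37, a zinc-binding protein of the large subunit, was at 12.73, 12.91, 12.70, 12.93 and 12.88 against 13.07 to 13.33 (median 13.13), without overlap (0.35, SE 0.06, adjusted p = 0.00732). Rps12, of the small subunit, was at 12.47, 12.47, 12.36, 12.49 and 12.36 against 12.59 to 12.92 (median 12.80), also without overlap (0.34, SE 0.06, adjusted p = 0.00765). Rpl37 and Rps12 had the smallest adjusted p-values of all members.

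**Figure D4:**
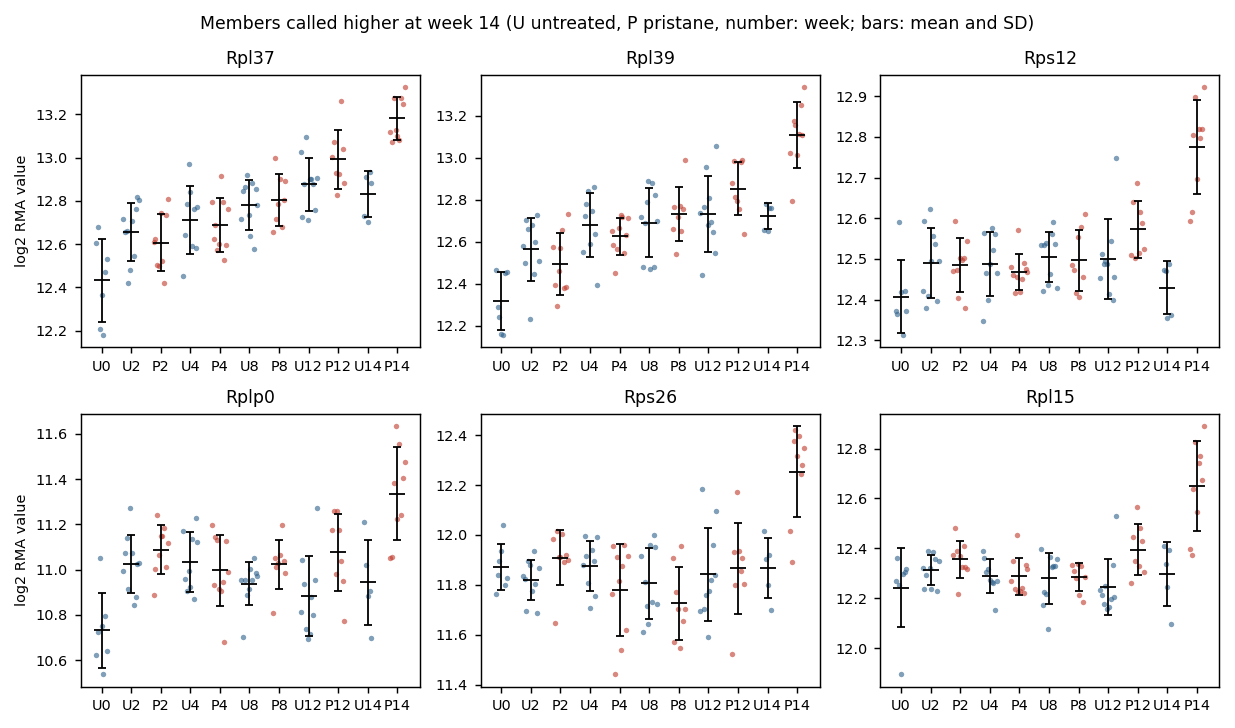
Log2 values of 6 members called higher at week 14 in each kidney (points) of the 11 groups, with group mean and SD (bars). U marks untreated and P pristane, followed by the week, and each panel has its own y axis. For Rpl37, Rpl39 and Rps12 all 9 pristane week 14 kidneys lie above all 5 untreated week 14 kidneys.

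The number of members called at week 14 depended on single kidneys, the sizes much less. Leaving out untreated replicates 1, 2, 3, 4 and 5 in turn left 7, 5, 3, 4 and 4 members called. Leaving out pristane replicates 3, 4, 6, 7 and 9 left 5, 7, 6, 7 and 5, and leaving out pristane replicate 2 gave 23. Over the 14 such fits the members' median difference stayed between 0.11 and 0.18. Rpl37, Rpl39 and Rps12 were called in 14 of 14 fits, Rpl34 in 13, Rpl30 in 11 and Rps26 in 7, while Rpl15 was called in 2 and Rplp0 in 3.

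Markers of other cell types differed strongly between the same groups. Of 14 macrophage and monocyte markers 12 were higher at pristane week 14 and 0 lower (median log2 difference 2.93), among them Ms4a7 (19.3-fold), Fcgr1 (12.0-fold) and Adgre1 (9.09-fold). Their summed level was 11.60 to 13.52 in pristane and 10.26 to 10.79 in untreated week 14 kidneys, with Itgam at the floor of the values in all 5 untreated and 8 of 9 pristane kidneys. T cell markers were higher in 4 of 9, plasma cell markers in 2 of 5, neutrophil markers in 2 of 6 and B cell markers in 0 of 7 cases, with 0 lower in each list. The neutrophil markers called were S100a8 (2.23) and S100a9 (2.70). Csf3r (0.03), Cxcr2 (0.10), Mmp9 (0.03) and Ngp (0.66, SE 0.55) were not called. Summed levels at pristane and untreated week 14 were 7.98 to 10.12 and 7.51 to 7.97 for T cells, 10.88 to 13.68 and 9.68 to 11.46 for plasma cells, 6.50 to 9.64 and 5.61 to 6.40 for neutrophils, and 6.03 to 7.48 and 5.98 to 6.12 for B cells, where Ms4a1, Blk and Fcer2a were at the floor in all 5 untreated kidneys. The part of these cells in the higher ribosomal protein values was not tested.

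Some tubule genes fell in the same comparison. Of 10 tubule markers 3 were lower, namely the glucose transporter Slc5a2 (-1.12), the salt transporter Slc12a3 (-1.08) and Calb1 (-1.09), and 0 were higher, with a summed level of 14.17 to 14.89 after pristane and 14.70 to 15.03 without. Of 7 glomerulus markers 0 were called, with summed levels of 11.69 to 12.65 and 12.08 to 12.50. The tissue label was borne out by the tubule markers Umod and Slc12a1, whose means over all arrays were 13.30 and 12.09. Of 3 erythroid markers 1 was lower (Slc4a1, -2.03), while Hba-a1 (0.41, SE 0.63) and Alas2 (0.08, SE 0.07) were not called. Of 4 fat and 11 muscle markers 0 were called. Adrenal markers, called in 0 of 10, were uneven: their summed level was 7.31 to 7.54 in 6 pristane week 14 kidneys and 11.62, 10.53 and 9.93 in replicates 4, 5 and 6, against 7.44 to 7.87 in untreated week 14. Without those 3 kidneys 1 member (Rpl37) was called at week 14, beside 0.302% of all probe sets, and the members' median difference was 0.13. At untreated week 0 replicates 3 and 5 were likewise at 10.27 and 11.07, and without them 37 members were called at untreated week 14 against week 0, all higher, beside 11.4% of all probe sets in either direction.

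The pristane effect at week 14 (pristane minus untreated kidneys) was not shown to differ from that at week 12. That comparison includes the untreated week 12 kidneys, among them replicate 10 with its high macrophage markers. The difference between the pristane effects of weeks 14 and 12 was called by limma in 0 members and in 0% of all probe sets. At an unadjusted p under 0.05, 15 members were larger at week 14 and 0 smaller, beside 4.52% and 11.3% of all probe sets. The members' median was 0.11. The largest values were those of Rpl12 (0.36, SE 0.14) and Rps26 (0.36, SE 0.13), and the lowest those of Rpl7l1 (-0.26, SE 0.24) and Rps27l (-0.10, SE 0.08). The smallest adjusted p was that of Rps12 (0.27, SE 0.07, adjusted p = 0.0716).

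The paralogs Rpl22l1 and Rpl7l1 and their partners were all called higher in the untreated comparison of weeks 14 and 0. There Rpl22l1 was higher by 1.43 and Rpl22 by 0.41 (SE 0.07, adjusted p = 0.00471), and Rpl7l1 was higher by 1.09 and Rpl7 by 0.37 (SE 0.07, adjusted p = 0.0059). The difference between partners was not tested. At week 14 the pristane difference was 0.53 in Rpl22l1 (SE 0.22, adjusted p = 0.162), where the 9 pristane kidneys ran from 9.60 to 11.02 (median 10.36) and enclosed all untreated ones, and -0.03 in Rpl22 (SE 0.13). It was -0.20 in Rpl7l1 (SE 0.20) and 0.17 in Rpl7 (SE 0.11), and none of these 4 was called.

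**Figure D5:**
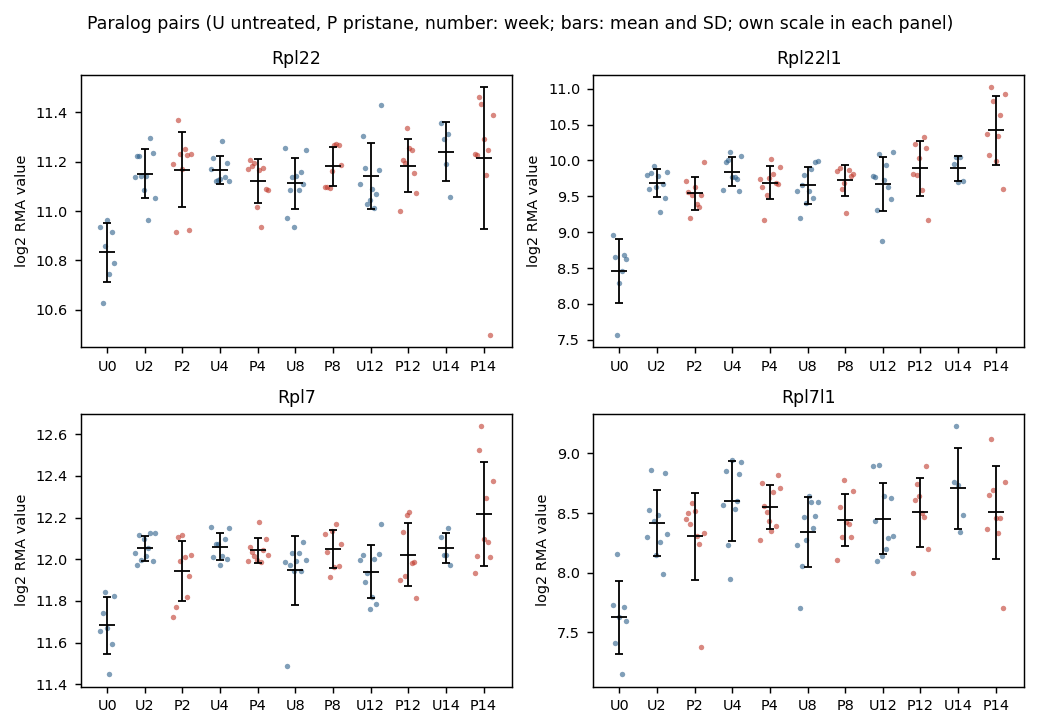
Log2 values of Rpl22, Rpl22l1, Rpl7 and Rpl7l1 in each kidney (points) of the 11 groups, with group mean and SD (bars). U marks untreated and P pristane, followed by the week, and each panel has its own y axis. The week 0 mean is the lowest in each panel, at 8.46 for Rpl22l1 and 7.62 for Rpl7l1.

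Rpl36a and its near-identical paralog Rpl36al had log2 differences of 0.31 and 0.14 between untreated weeks 14 and 0 (SE 0.13 and 0.05) and of 0.13 and 0.15 with pristane at week 14 (SE 0.09 and 0.08), and neither was called. Rpl39 was called between untreated weeks 14 and 0 as well (0.41, SE 0.07, adjusted p = 0.00391), where its paralog Rpl39l was near the floor. Rps27l, a small-subunit paralog induced by p53, was called higher at untreated week 14 than at week 0 (0.33, SE 0.05, adjusted p = 0.00293) and had its highest mean in pristane week 12 (11.87 ± 0.14, SD, n = 8, against 11.71 ± 0.09, n = 10, untreated, adjusted p = 0.647). Rpl3 was called in the same untreated comparison (0.35, SE 0.07, adjusted p = 0.0105), and its difference at week 14 was 0.28 (SE 0.10, adjusted p = 0.0919). Rps4x, the X-linked small-subunit protein, was called both over time in untreated mice (0.23, SE 0.06, adjusted p = 0.0257) and with pristane at week 14 (0.25, SE 0.06, adjusted p = 0.0334).

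Among the stalk proteins, Rplp0 was the one called with pristane at week 14, and Rplp1 and Rplp2 were at 0.02 (SE 0.10) and 0.06 (SE 0.12). Between untreated weeks 14 and 0, Rplp1 (0.37, SE 0.07, adjusted p = 0.00657) and Rplp2 (0.55, SE 0.08, adjusted p = 0.00306) were called and Rplp0 was not (0.21, SE 0.10, adjusted p = 0.197). Among members with roles outside the ribosome, Rpl11 was higher at untreated week 14 than at week 0 (0.46, SE 0.06, adjusted p = 0.00114) with a pristane difference of 0.03 (SE 0.06) at week 14. Rpl13a, part of a complex that silences inflammatory mRNAs, was called over time in untreated mice (0.36, SE 0.09, adjusted p = 0.0237), and its pristane difference of 0.36 at week 14 missed the threshold (SE 0.11, adjusted p = 0.0567). Rps19, mutated in Diamond-Blackfan anaemia, was called over time (0.58, SE 0.10, adjusted p = 0.00566) with a week 14 difference of 0.16 (SE 0.08). Rps6 was called in no comparison (0.07, SE 0.04, with pristane at week 14).

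Other probe sets of the same genes did not all give the same value. Of all 131 probe sets, 23 were called higher and 1 lower with pristane at week 14, and 62 higher and 2 lower at untreated week 14 against week 0, with 0 genes called in opposite directions by different probe sets. A second probe set of Rpl13, whose chosen probe set was not called, was higher at week 14 (0.65, SE 0.14, adjusted p = 0.0209). A second probe set of Rps2 was lower at untreated week 14 than at week 0 (-0.45, SE 0.04, adjusted p = 0.000318), where the chosen one was at -0.04 (SE 0.06). For Rps12 a second probe set gave 0.30 at week 14 (SE 0.08, adjusted p = 0.0442). For Rpl15 the second, dimmer probe set gave -0.36 (SE 0.13, adjusted p = 0.0967). For Rpl39 the second, dimmer probe set gave 0.09 with pristane at week 14 (SE 0.04, adjusted p = 0.236). It gave -0.0002 (SE 0.003) at untreated week 14 against week 0. Further probe sets of Rpl37 gave 0.29 (SE 0.09) and -0.05 (SE 0.14) with pristane at week 14. A dimmer probe set of Rpl22 was the 1 called lower there (-0.25, SE 0.07, adjusted p = 0.0375). Of the chosen probe sets 17 had names ending in x_at and 6 in s_at, which mark probes shared with other transcripts, and ribosomal protein genes have many processed pseudogenes, so values of single members may hold signal from copies.

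Other genes of the translation machinery were compared from fixed lists, whose counts at week 14 stand beside 4.57% of all probe sets called higher and 3.73% called lower. Of 26 elongation and initiation factors 6 were higher with pristane at week 14 and 0 lower (median 0.11), among them the subunit-joining inhibitor Eif6 (0.69, SE 0.20, adjusted p = 0.0494), the poly(A)-binding protein Pabpc1 (0.62, SE 0.13, adjusted p = 0.0213) and the helicase Eif4a1 (0.52, SE 0.14, adjusted p = 0.0447). Of 30 ribosome biogenesis genes 3 were higher and 2 lower (median 0.08). The nucleolar proteins Nop56 (0.75, SE 0.18, adjusted p = 0.0305) and Npm1 (0.43, SE 0.12, adjusted p = 0.0431) rose, and Nolc1, a chaperone of nucleolar particles, fell by 0.77 on the log2 scale (SE 0.17, adjusted p = 0.0224). Of 17 growth control genes 3 were higher and 0 lower (median 0.13), led by Myc, the activator of ribosome production, at 3.08-fold (adjusted p = 0.0425), and by the translation-blocking kinases Eif2ak2 at 2.59-fold (adjusted p = 0.0319) and Eif2ak4 at 1.19-fold (adjusted p = 0.0499). Of 12 p53 and ribosomal stress genes 2 were higher and 0 lower (median 0.22), namely the cell cycle inhibitor Cdkn1a at 2.75-fold (adjusted p = 0.0329) and Trp53inp1 at 1.48-fold (adjusted p = 0.0226). At week 12 the p53 target Eda2r was the 1 gene of these lists called (0.76, SE 0.12, adjusted p = 0.0344), and at weeks 2, 4 and 8 there were 0.

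Between untreated weeks 14 and 0, where 8.78% of all probe sets were higher and 4.52% lower, 9 of the 26 elongation and initiation factors were higher and 0 lower (median 0.28), among them Eif4a1 (0.65), Eef1b2 (0.61) and Eif3i (0.59). The biogenesis list had 4 higher and 3 lower (median 0.11), with Nhp2 at 1.22, Rrn3 at 0.67 and Wdr12 at -0.73. The growth control list had 1 higher, the mTOR inhibitor Deptor (0.54), and 1 lower, the mTOR complex subunit Mlst8 (-0.78). The p53 list had 3 higher and 0 lower (median 0.10), Pmaip1 (1.06), Ccng1 (0.59) and Mdm4 (0.34). Of 2 subunit proteins named outside the symbol pattern, Fau was called higher (0.35, SE 0.09, adjusted p = 0.0244), and 0 of 2 were called with pristane at week 14.

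Mitochondrial ribosomal proteins, which build the separate ribosome of mitochondria, gave a median of the opposite sign at week 14. Of 73 such genes 13 were lower with pristane and 1 higher, beside 3.73% of all probe sets lower and 4.57% higher, with a median log2 difference of -0.30 beside 0.15 in the 69 cytosolic members. Mrpl1 fell by 1.02 on the log2 scale (SE 0.23, adjusted p = 0.0251), Mrpl50 by 0.81 (SE 0.18, adjusted p = 0.0216) and Mrps5 by 0.69 (SE 0.16, adjusted p = 0.0279), while Mrpl52 rose by 0.28 (SE 0.07, adjusted p = 0.0366). Between untreated weeks 14 and 0 the same list had 21 higher and 1 lower (median 0.23), beside 8.78% and 4.52% of all probe sets, so its median had the sign of the cytosolic members there. These comparisons share the untreated week 14 kidneys.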

How the data were processed

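Kidney RNA was extracted with Trizol, labelled with the NuGEN Ovation Biotin system and hybridised to HT MG-430 PM arrays. The authors normalised probe intensities by RMA and deposited log2 values in 1 table of 45141 probe sets, and 104 control probe sets were left out here. Groups came from the labels. RMA pulls dim probe sets to a floor (2.21, 18.6% of values), which hides differences there, and arrays give no read depth, so their number and brightness limit precision. Of the probe sets 28898 had 1 annotated symbol and 551 several.

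Differences were fitted with limma 3.58.1 in R 4.3.3 (lmFit and eBayes) on the 2 groups of each week, the 4 groups of weeks 12 and 14, or all untreated or pristane groups, with Benjamini-Hochberg adjustment over the 45037 probe sets and an adjusted p under 0.05 as a call. The scripts were tested on simulated data. Members and gene lists were chosen with earlier results of these data known. Named genes were up to 5 called members with the largest difference each way per comparison (the 2 largest each way where none was called), fixed paralog pairs, the stalk proteins, Rpl11, Rpl13a, Rps6 and Rps19, the 3 members of highest, lowest and most variable values and of least likeness to the others, up to 3 called genes per other list, and the 5 genes most like the members. Others named were chosen after their values were seen, and Rpl5, Rps3, Rps27a, Rpl10l, Rps4l and Rps27 were not analysed here. Marker levels are log2 of summed linear values. Alternatives changed the scaling, filter, probe set, fit, controls, threshold and kidneys. TOP tracts were searched in RefSeq windows of 250 bases before to 50 after each start (GRCm38.p6).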

Additional observations from a re-analysis of the deposited data

Results flagged for a closer look

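Over 17 measures (the members' median and 16 members whose group values are given) and 11 groups, 19 of 187 tests found 1 kidney far from the rest of its group by Dixon's criterion, which chance alone meets in about 1 of 20 tests. In untreated mice these were Rps18 at week 0 in replicate 6 (10.63) and at week 2 in replicate 7 (11.29), Rpl15 at week 0 in replicate 4 (11.90) and at week 12 in replicate 10 (12.53), Rpl7 (11.49), Rplp0 (10.70) and Rps14 (10.996) at week 8 in replicate 2, Rps15a at week 8 in replicate 6 (5.36) and at week 12 in replicate 5 (4.72), and Rps14 at week 14 in replicate 5 (11.13). In pristane mice they were Rpl24 in replicate 3 (12.03), Rps26 in replicate 2 (11.65), and Rpl7l1 (7.38) and Rps14 (11.12) in replicate 8 at week 2, Rpl22l1 at week 8 in replicate 5 (9.26), Rpl24 in replicate 8 (12.23) and Rps15a in replicate 4 (5.25) at week 12, and Rpl22 (10.50) and Rps15a (5.39) at week 14 in replicate 8. The untreated week 8 replicate 2 was low in 3 of these measures.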

How the results depend on the processing

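With all untreated mice as controls the members called numbered 4, 0, 3 and 49 for weeks 2, 4, 12 and 14, beside 2.46%, 0.173%, 4.92% and 30.1% of all probe sets. The week 4 call also went to 0 under median centring, quantile normalization, the filter, a single fit over all groups, the replicate block and an adjusted p under 0.01. At week 14 the count was 9 under median centring (beside 9.89% of all probe sets), 31 in a single fit (20.7%), 0 with the replicate block (0%), 2 at an adjusted p under 0.01 (0.799%) and 1 without the kidneys rich in adrenal markers (0.302%). The comparison of weeks 14 and 12 gave 8 in a single fit (11%) and 2 with weights per group (3.77%). Untreated week 14 against week 0 gave 16 with the replicate block (3.99%), 21 at an adjusted p under 0.01 (4.64%) and 4 with week 2 in place of week 0 (3.89%). Median centring moved the median of all probe sets in that comparison from -0.01 to 0.10, and that of the members from 0.31 to 0.42. The F tests gave 7 for untreated mice without week 0 (10.8%) and 12 for pristane mice without week 14 (14.4%). The cause of these changes was not tested. Replicate numbers are shared by the groups. Deviations of same-numbered kidneys correlated above 0.1 in 5 of 9 pairs at week 2 and in 3 of 9 at week 4. At weeks 8, 12 and 14 they did so in 3 of 8, 1 of 8 and 2 of 5 pairs. With so few pairs a week, this cannot settle whether the numbers pair the kidneys, and the labels do not say so.

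Leaving out 1 kidney at a time gave 0 to 1 members at week 2 (1 without pristane replicate 8), 0 to 1 at week 4, 0 to 0 at week 8, 0 to 1 at week 12 (1 without untreated replicate 10), 3 to 23 at week 14, 0 to 5 for weeks 14 against 12 (4 and 5 without pristane week 14 replicates 1 and 2), 27 to 42 for untreated week 14 against week 0 (27 without untreated week 14 replicate 2), 52 to 55 over the untreated groups and 44 to 49 over the pristane groups. The week 4 call was lost without untreated replicates 1, 2, 3, 4, 6, 8 or 9, or pristane replicates 2, 3, 4, 5, 6, 7, 8 or 10.

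Of all values of single genes under alternatives, 175 kept direction and side of the threshold, 72 kept direction only and 4 turned: with pristane at week 14 Rpl15 was -0.00467 by the mean over its probe sets, and Rpl21 was -0.056 and Rps24 -0.10 by probe sets named _at or _a_at. Rps14 was -0.021 at untreated week 14 against week 2.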
